A study of Mus musculus with 4 samples.

Results

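The uroplakin genes Upk1a, Upk1b, Upk2, Upk3a and Upk3b were examined in lung cells of mouse embryos labelled as Cre controls or Myrf mutants. The 5 members were taken by symbol from the 32285 genes listed in the files, and all 5 had a row. The cross combined a tamoxifen-dependent Cre recombinase (Wt1creERT2, driven by the mesothelial gene Wt1), floxed Myrf and a tdTomato reporter at the Rosa26 locus. Dams received tamoxifen on embryonic day E12.5, and lung collection followed at E16.5. The labels give Myrf Fl/Fl for both parents and do not state which Myrf alleles the Cre controls carried. A sort collected living tdTomato-positive lung cells, whose transcript 3' ends were counted in droplets. Cre controls gave 2 libraries and Myrf mutants another 2, from 3 to 5 pooled lungs per genotype. It is not stated that the replicate libraries came from different pools, so p-values measure only the spread between these libraries, which may be technical.

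Uroplakins are membrane proteins best known from the bladder lining, where they pack into rigid plaques on the luminal surface. Upk1a and Upk1b encode tetraspanins, and Upk2, Upk3a and Upk3b encode single-pass proteins that leave the endoplasmic reticulum in complex with a tetraspanin partner. Upk1a pairs with Upk2, and Upk1b pairs with Upk3a or Upk3b. Upk1b and Upk3b are also known as surface markers of mesothelium, the epithelial sheet that covers the lung and other organs.

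Upk3b lies on mouse chromosome 5 (mm10, 136038496 to 136046487, plus strand, 6 exons, protein-coding). Upk1b lies on chromosome 16 (38773184 to 38800328, minus strand), Upk3a on chromosome 15 (85017141 to 85022547, plus strand), Upk1a on chromosome 7 (30603092 to 30612847, minus strand) and Upk2 on chromosome 9 (44452715 to 44454976, minus strand). No annotated gene overlapped any member, so their reads could not be confused with those of an antisense partner. The 250 bases before the annotated start are shown for Upk3b, the most abundant member, and for its little-expressed paralog Upk3a. They were copied from RefSeq (GRCm38.p6), which held such an entry for 3 of the 5 members. Capitals mark matches on either strand to CTGGCAC or CTGGTAC, the recognition letters of MYRF, and to CATTCC, those of the TEAD factors.
Upk3b, chr5:136038246-136038495, plus strand: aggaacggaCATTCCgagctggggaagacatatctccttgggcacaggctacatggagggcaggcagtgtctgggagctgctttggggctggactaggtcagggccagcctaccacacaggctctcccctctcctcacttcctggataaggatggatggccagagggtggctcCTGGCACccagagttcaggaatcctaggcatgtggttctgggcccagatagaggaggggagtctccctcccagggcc
Upk3a, chr15:85016891-85017140, plus strand: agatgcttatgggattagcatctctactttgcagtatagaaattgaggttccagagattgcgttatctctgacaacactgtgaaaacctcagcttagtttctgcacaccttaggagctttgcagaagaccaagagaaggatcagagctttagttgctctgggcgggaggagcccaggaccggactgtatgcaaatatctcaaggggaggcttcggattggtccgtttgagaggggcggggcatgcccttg

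In the Upk3b window, the MYRF letters CTGGCAC stood at bases 77 to 71 before the start (136038419 to 136038425) and the TEAD letters CATTCC at bases 241 to 236. The windows of Upk3a and Upk1a held neither. The Upk1a window, placed by the RefSeq entry, ran from 30612735 to 30612984, so part of it lay within the gene bounds given above. Over 32851 such windows, 5.93% held the MYRF letters, 12.6% held the TEAD letters and 0.743% held both. A match of letters describes the sequence and is not a measured binding site.

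After filters on genes and mitochondrial UMIs (unique molecular identifiers, which count captured transcripts), 8470 cells remained, with 281 and 3503 in control libraries 1 and 2. Mutant libraries 1 and 2 kept 411 and 4275. Their totals ran from 8175944 to 80755665 UMIs, and 6 barcodes occurred in more than 1 library. Cells were clustered with the 5 uroplakin genes left out, and clusters were named from other marker genes. Mesothelial-like cells, whose leading genes included Col4a4, Frem2, Aldh1a2 and Lrrn4, numbered 112 and 735 in control libraries 1 and 2 but 2 and 3 in mutant libraries 1 and 2. The labels call the sorted tdTomato-positive cells mesothelial, but by these markers few cells of the mutant libraries were mesothelial-like. A cluster with a mixed profile held 2026 of the 3503 cells of control library 2. It was called mixed because 80.7% of the markers lay within 2-fold of the rest of that library. Its best marker list was nonetheless mesothelial, with 7 markers against 1 in the next list. Results that rest on it are given with and without it. Myrf stood at 68.9 and 51.0 TMM-normalised CPM over all sorted control cells and at 17.6 and 8.21 over mutant cells (edgeR adjusted p = 0.131). The labels do not say which exons were floxed, so these 3' counts do not check the deletion.

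Upk3b was the most abundant member in the sorted controls and was lower in both mutant libraries. Over all sorted cells it stood at 965 and 661 CPM (summed UMIs of the gene per 1000000 UMIs) in control libraries 1 and 2. The mutant libraries had 8.73 and 6.996 CPM. For Upk1b the controls had 159.9 and 137 CPM, and the mutants had 2.29 and 2.48 CPM. Upk3b fell by 6.61 ± 0.39 (log2 change ± SE, n = 2 per group) and Upk1b fell by 5.85 ± 0.30, with adjusted p = 0.00482 and 0.00408 (edgeR quasi-likelihood, two-sided, Benjamini-Hochberg). Only these 2 of the 5 members passed the filter on low counts, and both fell, against 0.339% of the 16246 genes tested (0.0185% rose, and 0.357% were called in either direction). With the mixed cluster left out, they fell by 6.64 and 5.79 (edgeR adjusted p = 0.00534 for each). In these summed values, fewer mesothelial cells and less uroplakin RNA per cell cannot be told apart.

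The partners of the bladder plaque were close to absent. Upk3a, the alternative partner of Upk1b, was counted with 2 and 32 UMIs in control libraries 1 and 2, or 0.245 and 0.551 CPM. The mutant libraries gave 4 and 13 UMIs, or 0.191 and 0.161 CPM. Upk1a, the other tetraspanin, had 0 and 14 UMIs in controls and 2 and 17 in mutants. Upk2, its partner, had 0 and 2 UMIs in controls and 1 and 0 in mutants. A count of 0 allows up to 3 UMIs, or 0.367 CPM in control library 1 and 0.0371 CPM in mutant library 2. Without a filter on low counts none of these 3 passed (edgeR adjusted p = 0.954 for Upk3a, 0.9996 for Upk1a and 0.977 for Upk2), and none had an unadjusted p under 0.05. In that setting 2045 of 23746 genes had an unadjusted p under 0.05, and 2.88% were called. DESeq2 was run only on genes past the filter, so these 3 members have no value there. At this depth no difference of these genes between genotypes was detectable. Even in control mesothelial-like cells, Upk3a had 2 UMIs in 112 cells and 5 in 735, Upk1a had 0 and 3, and Upk2 had 0 and 0. The smooth muscle-like cluster with the leading genes Crh and Myh11 had 9 Upk3a UMIs in 5 of 128 cells of control library 2 (3.31 CPM) and 7 in 6 of 126 cells of mutant library 2 (4.50 CPM). It thus held 7 of the 13 Upk3a UMIs of that mutant library. In the same cluster, the 17 cells of control library 1 and the 22 of mutant library 1 had 0, which allows up to 6.98 and 5.85 CPM.

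**Figure D1:**
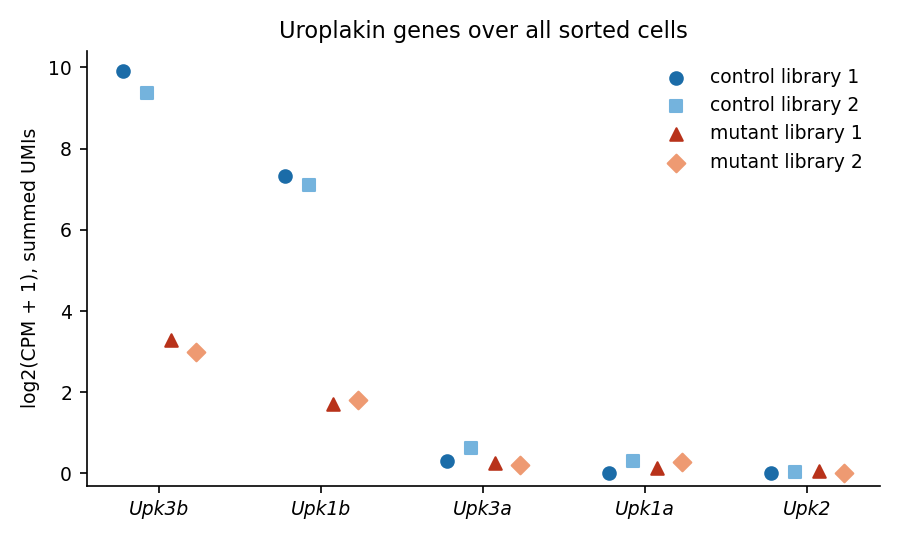
Level of each uroplakin gene over all sorted cells, as log2(CPM + 1) of summed UMIs, with 1 point per library (2 control, 2 mutant). Upk3b and Upk1b are separated by genotype, from 965 and 661 to 8.73 and 6.996 CPM for Upk3b, while Upk3a, Upk1a and Upk2 lie near 0 in all 4 libraries.

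Within controls, both expressed members were concentrated in mesothelial-like cells and, in control library 2, also in the mixed cluster. Upk3b stood at 1824 and 1505 CPM in mesothelial-like cells of control libraries 1 and 2, and Upk1b at 299 and 285 CPM. Mesothelial-like cells held 7503 of 7888 Upk3b UMIs in control library 1 and 24226 of 38377 in control library 2. In the latter, the mixed cluster held 13284 more, at 555 CPM. Of its 2026 cells, 44 had no Upk3b UMI, and the median of all 2026 was 5.30 UMIs per 10000. Fibroblast-like cells stood at 4.57 and 24.9 CPM for Upk3b and at 2.08 and 4.95 CPM for Upk1b. Smooth muscle-like cells outside the gate defined further below stood at 39.8 CPM for Upk3b in control library 2, and an unnamed cluster with the leading genes Dcx and Rspo2 at 17.2 CPM. Among classes with at least 20 cells, the order in control library 2 ran from mesothelial-like through mixed and the 26 gated muscle-like cells (380 CPM) to smooth muscle-like, fibroblast-like and unnamed. As ratios, the last 3 of these differed from each other by less than the fibroblast-like values differed between the control libraries. Smaller classes of that library, with 10 to 18 cells each, stood at 476 CPM (immune-like), 107 CPM (pericyte-like), 73.8 CPM (endothelial-like) and 62.1 CPM (epithelial-like). These levels are descriptions without a test. The few mesothelial-like cells of mutants stood at 548 CPM (2 cells) and 1443 CPM (3 cells) for Upk3b, but only 1 and 2 of these cells had a UMI of it.

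Nearly every control mesothelial-like cell carried Upk3b. A UMI of Upk3b was found in 111 of 112 and 733 of 735 cells of control libraries 1 and 2, and a UMI of Upk1b in 110 and 704. With every cell thinned to 5000 UMIs, which left out 0 and 15 shallower cells, 99.1 and 98.3% had Upk3b and 69.6 and 71.4% had Upk1b. The exact binomial 95% intervals of the Upk1b shares were 60.2 to 78.0% and 67.9 to 74.7%, and they cover counting error only. At that depth, 78 of 112 and 509 of 720 cells had both genes, 33 and 199 had Upk3b alone, 0 and 5 had Upk1b alone, and 1 and 7 had neither. Per 10000 UMIs of a cell, Upk3b had a median of 16.1 and 14.0 and an interquartile range of 12.6 to 23.3 and 9.11 to 20.05. The Upk1b medians were 2.80 and 2.69. Both genes thus varied little between the control libraries once mesothelial-like cells were compared with each other.

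The share of fibroblast-like cells with a Upk3b or Sftpc UMI, taken here as a sign of background RNA, differed between the libraries. In fibroblast-like cells, which should lack Upk3b, 12.7 and 36.3% of cells had a Upk3b UMI in control libraries 1 and 2, and 4.41 and 8.56% did after thinning. Their median depths were 30936 and 21676 UMIs, against 35198 and 20162 UMIs in mesothelial-like cells. In mutant libraries 1 and 2, 1 of 75 and 4 of 2105 fibroblast-like cells had one. Sftpc, a surfactant gene of lung epithelium, was found in 11.4 and 21.2% of fibroblast-like cells of controls and in 37.3 and 8.88% of those of mutants. At full depth, the Upk3b share of fibroblast-like cells was thus highest in control library 2, while the Sftpc share was highest in mutant library 1. The parts of depth, background RNA, doublets and low expression in these shares were not tested. The uroplakin levels of fibroblast-like, smooth muscle-like and unnamed cells in controls are not read as expression.

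**Figure D2:**
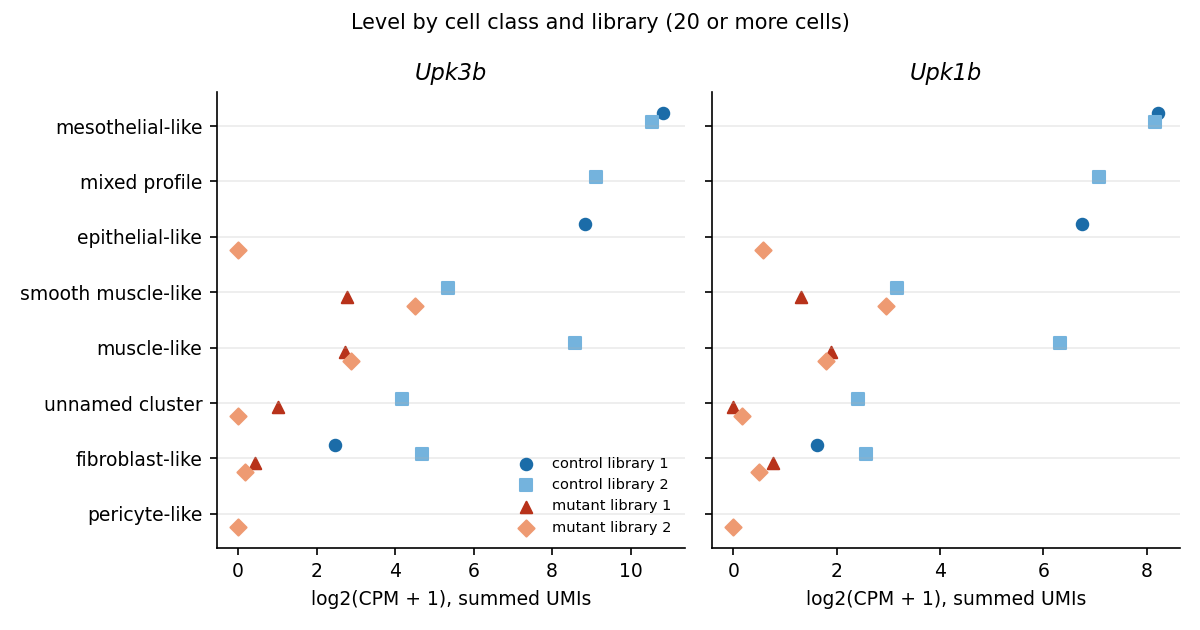
Level of Upk3b (left) and Upk1b (right) by cell class, as log2(CPM + 1) of summed UMIs, with 1 point for each library that held at least 20 cells of the class. Muscle-like is the Tnnt2 and Des gate, and the other classes leave those cells out. Mesothelial-like cells of controls lead in both panels, and fibroblast-like cells of mutants lie at 0.348 and 0.129 CPM for Upk3b.

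Among the mesothelial-like cells, a small cluster with the leading genes Col6a5, Igfbp3 and Smpd3 carried less of both members. Upk3b stood at 943 and 779 CPM in its 8 and 71 cells of control libraries 1 and 2, against 1891 and 1594 CPM in the 104 and 667 cells of the main cluster. Upk1b stood at 148 and 119 CPM, against 310 and 305 CPM. For each gene, both values lay below both values of the main cluster. The uroplakin genes did not enter the clustering, but genes that vary with them did, so this is a description.

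Over the 20 sums of a class and library with at least 20 cells, the pattern of Upk3b was most like that of Upk1b, with a Pearson r of 0.99 on log2(CPM + 1). Lrrn4, a leucine-rich repeat membrane protein gene, followed at 0.97, and Pnoc, Il18 and Bst1 at 0.95, 0.95 and 0.95. For Upk1b the order was Lrrn4 at 0.99, Upk3b at 0.99, and Bst1, Bnc1 and Pnoc at 0.98, 0.97 and 0.97. These were the highest of 9553 genes with at least 20 CPM in a sum. Upk3a reached 0.36 with Upk3b and Upk1a reached 0.12. The sums share libraries and the same background RNA, and the values carry no test.

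Mutant libraries held many cells with muscle genes, which were selected by Tnnt2 (cardiac troponin T) and Des (desmin, the muscle intermediate filament), each at 2 or more UMIs per 10000. This gate took 123 of the 411 cells and 534 of the 4275 cells of the mutant libraries, but 1 and 26 cells of the control libraries. Tnnt2 alone stood at 148 and 142 CPM in control mesothelial-like cells, close to the gate, and Des there at 23.3 and 25.5 CPM. Of the gated mutant cells, 121 and 516 lay in the smooth muscle-like cluster led by Tnnt2, Des and Ramp1. The gate cuts a continuous range: 33 and 266 mutant cells lay between 1 and 2 UMIs per 10000 for the lower gene, and 42 and 249 between 2 and 4.

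These muscle-like mutant cells had low levels of both mesothelial uroplakins. Upk3b stood at 5.61 CPM (exact Poisson 95% interval 4.11 to 7.48) in mutant library 1 and at 6.29 CPM (5.04 to 7.76) in mutant library 2. That is 0.0561 and 0.0629 UMIs per 10000, or 0.337 and 0.378% of the mean level in control mesothelial-like cells. Upk1b stood at 2.68 CPM (1.68 to 4.06) and 2.46 CPM (1.70 to 3.43), or 0.919 and 0.842% of its control mesothelial-like level. The intervals cover counting error only. The percentage was larger for Upk1b than for Upk3b in both libraries. Ungated cells of the same Tnnt2 and Des cluster stood at 6.32 and 24.1 CPM for Upk3b and at 1.63 and 7.47 CPM for Upk1b. For Upk3b in mutant library 1 the intervals overlapped (4.40 to 8.79 CPM for the ungated cells). The 24.1 CPM of mutant library 2 included 14 cells set aside below for their high Upk3b. At full depth, 10.2 and 4.41% of these ungated cells had a Upk3b UMI, against 14.9 and 7.75% of the gated cells of that cluster. Upk3a had 1 and 3 UMIs in the muscle-like cells, Upk1a had 1 and 2, and Upk2 had 0 and 0.

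**Figure D3:**
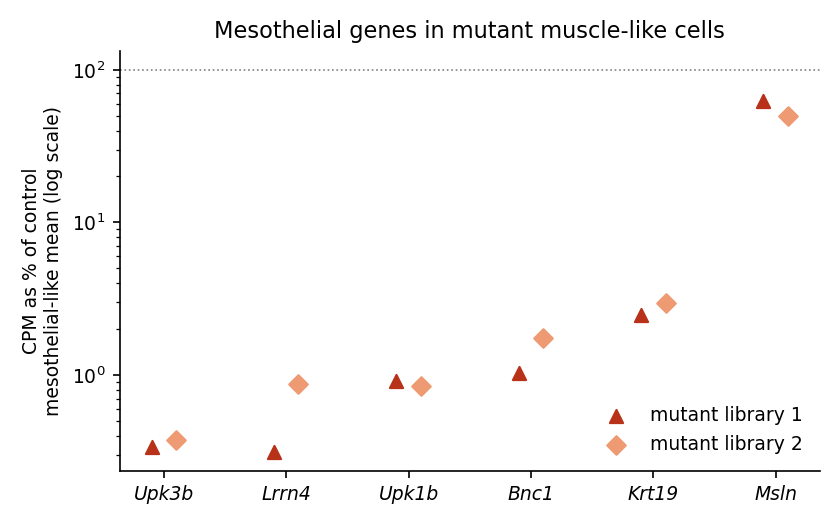
Level of Upk3b, Upk1b and 4 other mesothelial genes in muscle-like cells of the 2 mutant libraries, as percent of the mean CPM in control mesothelial-like cells, on a log scale, with a dotted line at 100%. Upk3b lies at 0.337 and 0.378%, and Msln lies at 62.9 and 49.8%.

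Other mesothelial genes were retained to different degrees in the same cells. Lrrn4 stood at 0.315 and 0.871% of its control mesothelial-like level, and Bnc1, a zinc finger gene of mesothelium, at 1.03 and 1.74%. Krt19, a simple-epithelium keratin, stood at 2.48 and 2.99%. Msln, which encodes the surface protein mesothelin, stood at 62.9 and 49.8%, with 82.9 and 65.6 CPM against 143 and 120 CPM in control mesothelial-like cells. Upk3b and Upk1b were thus among the genes with little left, and Msln was not. Muscle-like cells with a Msln UMI had a Upk3b UMI in 14 of 56 and 27 of 141 cases, and those without Msln in 4 of 67 and 14 of 393. The cells with Msln were also deeper, with medians of 55954 and 25369 UMIs against 39552 and 17660 UMIs, and the part of depth in this was not tested.

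Few of the gated cells had a UMI of either gene. Of the 123 and 534 muscle-like mutant cells, 105 and 493 had no Upk3b UMI, 7 and 25 had 1, 6 and 7 had 2, and 5 and 9 had 3 or more. The highest level was 0.822 and 2.69 UMIs per 10000, below the lower quartile of control mesothelial-like cells. A Upk3b UMI was found in 14.6% (exact binomial 95% interval 8.91 to 22.1%) and 7.68% (5.57 to 10.3%) of cells, and a Upk1b UMI in 7.32% (3.40 to 13.4%) and 3.37% (2.01 to 5.28%). In fibroblast-like cells of the same libraries the Upk3b shares were 1.33% (0.0338 to 7.21%) and 0.190% (0.0518 to 0.486%), and the Upk1b shares were 2.67% (0.325 to 9.30%) and 0.760% (0.435 to 1.23%). In smooth muscle-like cells outside the gate, 8.67 and 3.85% had a Upk3b UMI and 3.33 and 2.54% a Upk1b UMI. Their median depths were 35464 and 16879 UMIs, against 50080 and 19292 UMIs in muscle-like cells. Thinned to 5000 UMIs, 2 of 118 and 16 of 521 muscle-like cells had Upk3b, against 0 of 70 and 1 of 2063 fibroblast-like cells. For Upk1b these were 2 of 118 and 3 of 521, against 0 of 70 and 4 of 2063, and the intervals overlapped in both libraries. So few cells had a UMI that the thinned shares cannot show whether Upk1b lay above that background. At full depth the Upk1b intervals above overlapped in mutant library 1 but not in mutant library 2. For Sftpc the thinned shares were 6.78 and 4.80% of muscle-like cells and 7.14 and 2.71% of fibroblast-like cells. The Upk3b share of muscle-like cells in mutant library 2 lay above that of fibroblast-like cells beyond counting error. In mutant library 1 the Upk3b intervals did not overlap at full depth, but the thinned ones did (2 of 118 against 0 of 70 cells).

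**Figure D4:**
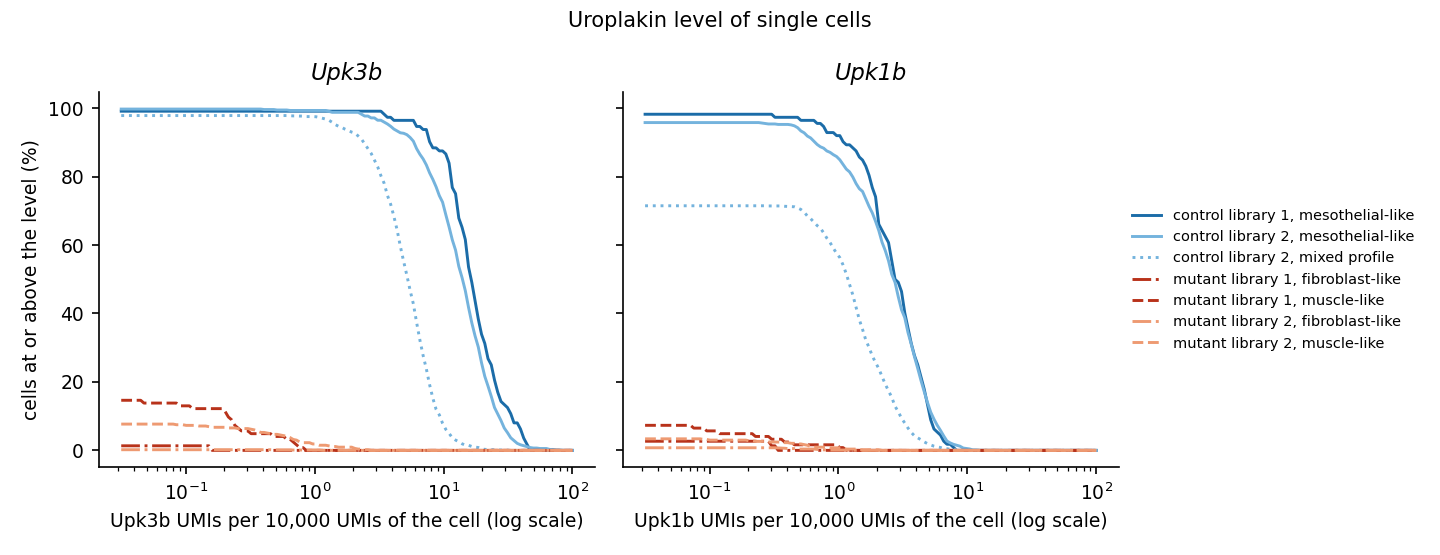
Share of cells (vertical axis, percent) at or above a level of Upk3b (left) or Upk1b (right) in UMIs per 10000 UMIs of the cell (horizontal log axis), for control mesothelial-like and mixed cells and for mutant muscle-like and fibroblast-like cells. The Upk3b curves of mutant muscle-like cells start at 14.6 and 7.68% and end by 0.822 and 2.69 UMIs per 10000, where those of control mesothelial-like cells are still near their top.

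Against the sum of all other cells of the mutant libraries, the muscle-like cells did not stand out for the uroplakins. Of the 137 and 478 Upk3b UMIs in those other cells, 88 and 399 lay in 1 and 17 cells, chosen below for their Upk3b. Upk3b had a log2 difference of -0.53 ± 0.26 and Upk1b of 0.17 ± 0.35 (SE, n = 2 libraries, library as a term), with edgeR adjusted p = 0.325 and 0.825. These p-values do not show that the classes were alike. None of the 2 members tested passed, while 4.3% of 14033 genes did (2.58% higher and 1.72% lower). Neither had an unadjusted p under 0.05, against 3048 of the 14033 genes. Neither passed with DESeq2 (adjusted p = 0.818 and 0.999), which called 6.53% of the genes. The other cells held the few mutant mesothelial-like cells, and without these the differences were 0.27 and 0.84 (edgeR adjusted p = 0.616 and 0.361). Against fibroblast-like cells alone, Upk3b was higher in muscle-like cells by 5.23 ± 0.55 and Upk1b by 2.37 ± 0.54 (edgeR adjusted p = 1.72e-06 and 0.00234). In that comparison 23.8% of 13481 genes were called higher, and the fibroblast-like sums held only 1 and 5 Upk3b UMIs.

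A large share of the Upk3b left in the mutant libraries, 48.1 and 70.6%, sat in a few cells outside the gate. The 5th percentile of Upk3b in control mesothelial-like cells was 6.498 and 3.82 UMIs per 10000, and cells at or above the lower value were counted after the values were seen. They numbered 1 of 411 and 17 of 4275, and held 88 of 183 and 399 of 565 Upk3b UMIs. None of them passed the gate. Of the 17, 14 lay in the Tnnt2 and Des cluster, 2 in the main mesothelial-like cluster and 1 in the mixed cluster, and the single cell of mutant library 1 was mesothelial-like. Their Upk1b was also near the control mesothelial-like level, at 304 and 280 CPM, and 15 of the 17 had a Upk1b UMI. Their Lrrn4 stood at 243 and 147 CPM, Msln at 385 and 131 CPM, Krt19 at 182 and 539 CPM and Bnc1 at 20.2 and 37.3 CPM. Control mesothelial-like cells had Lrrn4 at 251 and 213 CPM, Msln at 143 and 120 CPM, Krt19 at 340 and 367 CPM and Bnc1 at 79.3 and 62.3 CPM. In the cells set aside, Des stood at 60.7 and 240 CPM and Tnnt2 at 60.7 and 42.0 CPM. Control mesothelial-like cells had Des at 23.3 and 25.5 CPM and Tnnt2 at 148 and 142 CPM. The 14 cells of the Tnnt2 and Des cluster were not counted as mesothelial-like above. In the rest of the mutant cells Upk3b stood at 4.54 and 2.07 CPM, and in the rest of the Tnnt2 and Des cluster at 5.91 and 5.52 CPM. Since the cells set aside were chosen for their Upk3b, these remainders are descriptions and no comparison is drawn from them.

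The proportion of the 2 expressed uroplakins to each other was lower for Upk3b in the summed mutant libraries than in the controls. Over all kept cells, Upk3b made up 85.8 and 82.8% of the UMIs of both genes in the control libraries and 79.2 and 73.9% in the mutant ones. By class, it made up 85.9% (exact binomial 95% interval 85.2 to 86.6%) and 84.1% (83.7 to 84.5%) in mesothelial-like cells of control libraries 1 and 2. In the fibroblast-like cells of the control libraries it made up 68.8% (41.3 to 89.0%, 11 of 16 UMIs) and 83.4% (78.6 to 87.5%). The 26 gated cells of control library 2 were at 82.7% (77.1 to 87.5%). In muscle-like mutant cells it made up 67.6% (55.2 to 78.5%, 46 of 68 UMIs) and 71.9% (63.0 to 79.7%, 87 of 121 UMIs). In fibroblast-like cells of mutant library 2 it made up 23.8% (8.22 to 47.2%, 5 of 21 UMIs). In smooth muscle-like mutant cells it made up 79.5% (64.7 to 90.2%) and 76.3% (72.2 to 80.1%). The 3 mesothelial-like cells of mutant library 2 were at 73.0% (64.4 to 80.5%). The 2 of mutant library 1 were at 85.4% (77.1 to 91.6%, 88 of 103 UMIs), near the control mesothelial-like values, with all UMIs from 1 cell. The muscle-like intervals lay above that of fibroblast-like cells of mutant library 2 but overlapped those of the smooth muscle-like and mesothelial-like mutant cells. Both muscle-like values lay below the control mesothelial-like values. In this comparison, cell class and genotype cannot be told apart. UMIs of 1 cell are not independent, so these intervals are too narrow, and no test over libraries was made.

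**Figure D5:**
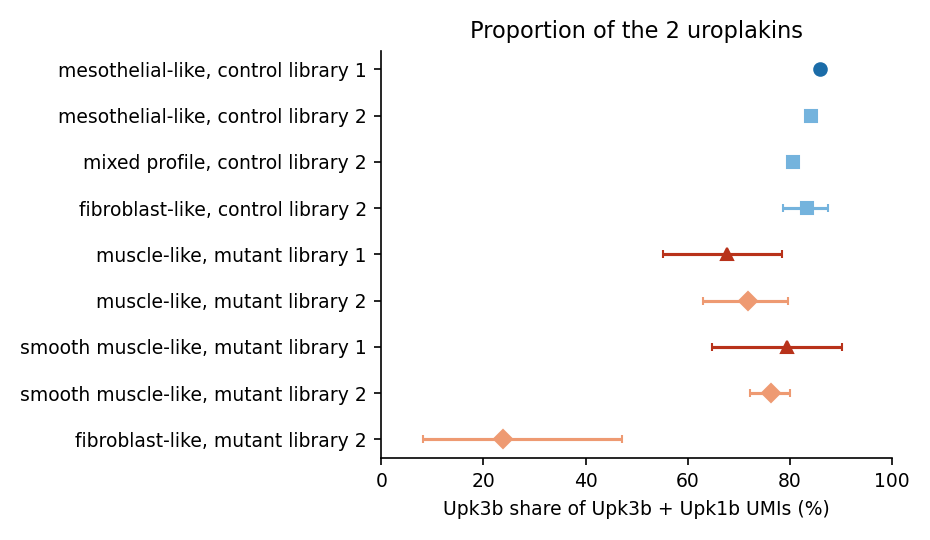
Upk3b as percent of the summed UMIs of Upk3b and Upk1b, by cell class and library, with exact binomial 95% intervals that cover counting error only. The plotted control values (mesothelial-like cells of both libraries, mixed and fibroblast-like cells of library 2) lie between 80.6 and 85.9%, and the muscle-like cells of mutant libraries 1 and 2 lie at 67.6 and 71.9%.

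In mesenchymal-like cells (fibroblast-like, smooth muscle-like and pericyte-like clusters), the 2 members did not pass between genotypes. These sums kept the gated cells. The Tnnt2 and Des cluster gave 249 of 349 and 1377 of 3635 cells in mutant libraries 1 and 2. It gave 1 of 108 and 21 of 575 cells in control libraries 1 and 2. Its Upk3b UMIs were 81 and 447 in the mutants and 0 and 20 in the controls. The part of cell make-up in the changes was not tested. Upk3b had a log2 change of -1.64 ± 0.59 and Upk1b of -0.96 ± 0.53 (SE, n = 2 per group), with edgeR adjusted p = 0.462 and 0.762. Of 14157 genes tested 0.0212% were called. An unadjusted p under 0.05 was found for 1 of the 2 members and for 1249 of the 14157 genes. Neither member passed with DESeq2 (adjusted p = 0.124 for Upk3b), which called 2.73% of the genes. Without control replicate 2 the changes of Upk3b and Upk1b were -0.19 and -0.14, and without control replicate 1 they were -2.25 and -1.35 (edgeR adjusted p from 0.0885 to 0.984).

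Of the gene lists around the uroplakins, no member passed over all sorted cells by edgeR. Over all 16246 genes tested, 1420 had an unadjusted p under 0.05 and DESeq2 called 499 (3.07%). Of 26 tested tetraspanins, 0 passed and 6 had an unadjusted p under 0.05, with a median log2 change of -0.08 against 0.03 over all genes. DESeq2 called 1, Cd82, a tetraspanin gene of the cell surface, whose controls had 73.6 and 70.4 CPM against 29.6 and 13.2 CPM for the mutants (log2 change -1.74 ± 0.33, edgeR adjusted p = 0.142). Tspan18 had 15.9 and 19.97 CPM in the control libraries against 60.99 and 26.1 CPM in the mutant ones (edgeR adjusted p = 0.341). Of 9 tested genes for the trafficking and turnover of uroplakins, 0 passed and 3 had an unadjusted p under 0.05, with a median of 0.06. DESeq2 called 1, Sytl2, a Rab27 effector gene, with 1.71 and 0.792 CPM for the controls against 8.78 and 2.6995 CPM for the mutants (edgeR adjusted p = 0.297). Stx11, a syntaxin gene, had a log2 change of 1.51 (edgeR adjusted p = 0.329). Of 10 tested genes of urothelial differentiation, 0 passed and 2 had an unadjusted p under 0.05, with a median of 0.41. DESeq2 called 2, Krt7 and Gata3. Krt7, a keratin of simple epithelia, had 157 and 167 CPM for the controls against 48.3 and 16.9 CPM for the mutants (log2 change -2.32 ± 0.44, edgeR adjusted p = 0.139), and Gata3, a transcription factor gene, had a log2 change of -2.23 (edgeR adjusted p = 0.195).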

How the data were processed

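The authors deposited UMI counts per gene and cell barcode, which come from Cell Ranger 6.0.2 on mm10 per the submitters' processing notes. For annotation release, cell calling and strand, the setting is not given in the sources used here. Positions came from GENCODE vM21, which matched 32158 of 32285 gene IDs. The sample titles gave each library its group and number. Replicate libraries were checked for identity and differed beyond sampling noise (chi-square over degrees of freedom 105 and 220).

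Barcodes with at least 1000 genes and at most 15% mitochondrial UMIs were kept. Scrublet (scanpy 1.11.5) marked 9 of 8733 barcodes as doublets and so did not work. In its place, 0.8% of cells per 1000 barcodes were taken out by score (1, 104, 1 and 157). Cells were clustered without the 5 uroplakin genes and 442 cell-cycle genes (3000 variable genes centred within replicate number, 30 principal components, 15 neighbours, Leiden at resolution 0.4, igraph 0.11.9), giving 13 clusters. A cluster took the name of the list with most markers at least 2-fold above the other clusters, with at least 3 needed, and was called mixed where at least 66% of markers lay within 2-fold of the rest of its main library. Gated cells were taken out of their cluster classes but not out of the mesenchymal-like sums.

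UMI sums per library went into the quasi-likelihood test of edgeR 4.0.16 (R 4.3.3) after filterByExpr and TMM scaling, with a Benjamini-Hochberg adjusted p under 0.05 over all genes. DESeq2 1.42.0 was an alternative, as were other filters, doublets kept, equal cell numbers, other gates, a replicate term and leaving out each library. The tests were tried on simulated data. Named genes were the members, the gate genes, 4 mesothelial genes and Sftpc, the 5 genes most like Upk3b and Upk1b, and per list the 4 smallest p that pass or else the 2 smallest. Members and lists were chosen with earlier results of these data known. CPM in the text is without TMM unless stated.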

Additional observations from a re-analysis of the deposited data

How the results depend on the processing

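Over all sorted cells and by edgeR unless named, Upk3b and Upk1b passed with the same direction under all 13 alternatives run, from -6.77 to -6.36 and from -6.11 to -5.67 on the log2 scale (adjusted p up to 0.00775 and 0.00738). Counts of called genes moved more than the members did. For all sorted cells the count of 58 became 499 with DESeq2, 685 without a low-count filter, 525 with the replicate block, 37 with mixed profiles left out, 28 at equal cell numbers, and 74 to 1097 when 1 library was left out (116 without control replicate 2, 1097 without mutant replicate 1, 486 without mutant replicate 2). For mesenchymal-like cells the count of 3 became 387 with DESeq2, 824 without a low-count filter, 134 with the replicate block, 0 with doublets kept (1159 at an unadjusted p under 0.05) and 0 to 721 when 1 library was left out (11 and 0 without control replicates 1 and 2, 313 and 721 without mutant replicates 1 and 2, with 1307 at an unadjusted p under 0.05 where 0 were called). There Upk3b passed in 1 alternative, with no filter on low counts (-1.61, adjusted p = 0.000125). There, leaving out 1 library gave -2.25 to -0.19 for Upk3b and -1.35 to -0.14 for Upk1b. For muscle-like against other mutant cells the count of 603 became 270 and 392 with the gate at 1 and 5 UMIs per 10000, 2012 without a low-count filter, 1213 with RLE normalization, 917 with DESeq2, 1143 with doublets kept, 6085 against fibroblast-like cells and 0 without the replicate block (1147 at an unadjusted p under 0.05). In that comparison Upk3b turned to 5.23 and Upk1b rose to 2.37 against fibroblast-like cells, and Upk3b turned to 0.27 with mesothelial-like cells left out, an alternative chosen after seeing the data. With 1 mutant library each, Upk3b was -0.94 and -0.18 and Upk1b -0.0137 and 0.395, as ratios with no test. The cause of these moves was not tested. Where a group kept 1 library, it was assumed to vary like the other group. Same-numbered libraries share only a number in the titles. Their deviations from the group means correlated at 0.36, and the replicate block changed no call of a member (Upk3b -6.60 over all sorted cells, adjusted p = 0.000406; -1.41 in mesenchymal-like cells, adjusted p = 0.146). With the unnamed cluster added, chosen after seeing the data, 2 genes were called in mesenchymal-like cells. Thinning lowered the mean share of muscle-like cells with Upk3b to 2.38% and with Upk1b to 1.14%.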

Other observations

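Upk3bl, the Upk3b-like gene that starts 8004 bases beyond the end of Upk3b on the same strand, was nearly silent. The control libraries had 0 and 16 UMIs of it and the mutant libraries 0 and 0, next to 7888 and 38377 Upk3b UMIs in the controls.

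Epithelial-like cells of controls held uroplakin UMIs that came from few cells. In control library 1, 153 Upk3b UMIs lay in 6 of 23 cells, of which 1 cell held 120, and 36 Upk1b UMIs lay in 3 cells. In control library 2, 79 Upk3b UMIs lay in 8 of 18 cells. There 8 of the 32 Upk3a UMIs of the library came from 1 epithelial-like cell. In mutant libraries 1 and 2, 11 and 0 Upk3b UMIs were found in 16 and 53 epithelial-like cells.

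The 26 cells of control library 2 that passed the Tnnt2 and Des gate had Upk3b at 380 CPM and Upk1b at 79.4 CPM, against 6.29 and 2.46 CPM in the gated cells of mutant library 2. A single cell held 71 of their 182 Upk3b UMIs, and a single cell held 13 of their 38 Upk1b UMIs. No Upk3b UMI was found in 4 of the 26 cells and no Upk1b UMI in 14. Of these 26 cells, 13 lay in the mixed cluster, 3 in the main mesothelial-like cluster and 5 in the Tnnt2 and Des cluster, and Sftpc stood at 309 CPM. The part of background RNA and of doublets in their level was not tested.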
